A study of Drosophila melanogaster with 2 samples.

Results

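u-shaped (ush) and the 5 GATA factor genes pannier (pnr), serpent (srp), grain (grn), GATAd and GATAe are 6 of the 13945 protein-coding genes annotated on the arms analysed here. They were taken by name, ush because its intronic binding summits were very strong and numerous in these same peak lists, and the GATA genes because GATA factors are its partners. All summits within each gene body and 5 kb on each side were counted, which gave 32 of the 7055 summits of the authors' optimal list, 20 for ush and 12 for the GATA genes. The counts and signals at ush chose it, so they are given as a description with no test.

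The chromatin came from whole white prepupae of both sexes, from a Drosophila melanogaster line that stably carries Sox102F, an HMG-box transcription factor of the SoxD family, fused to GFP at its C terminus. Per the free-text description, the tagged protein was precipitated with an antibody to GFP after sonication, and the DNA was sequenced (ChIP-seq). A separate label gives Sox102F as the antibody, and which is meant is not settled by the labels. Both samples are of that one kind, biological replicates 1 and 4, and every animal carried the tagged gene. No untagged line, other stage or other treatment was analysed here, and the promoter that drives the tagged gene is not given in the sources used here. Both replicates' own values are the only spread that can be shown. In whole animals, occupancy in few cells and weak occupancy in many cells cannot be told apart. The lists hold no read counts, so the depth behind each value is unknown. The signal of a peak is the authors' own value, in their units, and serves here only to rank and describe peaks within a list. In the optimal list its lowest value was 76.7 and its median 135.4.

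GATA factors are zinc finger proteins that bind the DNA word GATA. Ush belongs to the Friend of GATA (FOG) family. It has many zinc fingers but acts through GATA partners, binding the amino-terminal finger of a GATA protein and often turning activation into repression. In flies Ush with Pnr restrains bristle formation on the dorsal thorax and takes part in dorsal closure and heart formation. With Srp it limits the formation of crystal cells, a class of blood cell. Srp itself is needed for blood, fat body and endoderm, GATAe for the midgut, and Grn for parts of the embryonic nervous system and the posterior spiracles.

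The DNA under the summits is shown first for the 5 strongest ush summits, since these carry most of the signal at the gene. Each window is 101 bp centred on the summit, on the plus strand of release 6 (dm6 coordinates). Capitals mark ACAAT, a core word bound by Sox proteins, GATAA, a core word bound by GATA factors, and GAGAG, the word of GAGA factor, each on either strand (so also as ATTGT and TTATC and CTCTC).
ush summit 481083, chr2L:481033-481133: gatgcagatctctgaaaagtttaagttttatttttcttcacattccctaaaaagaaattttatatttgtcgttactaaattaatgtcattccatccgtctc
ush summit 480054, chr2L:480004-480104: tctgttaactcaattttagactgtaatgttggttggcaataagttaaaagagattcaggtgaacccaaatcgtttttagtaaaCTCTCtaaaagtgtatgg
ush summit 530421, chr2L:530371-530471: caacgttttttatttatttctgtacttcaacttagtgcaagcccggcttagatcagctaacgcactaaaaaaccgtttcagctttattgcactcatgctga
ush summit 510800, chr2L:510750-510850: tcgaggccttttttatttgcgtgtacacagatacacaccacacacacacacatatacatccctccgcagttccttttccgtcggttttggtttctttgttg
ush summit 485865, chr2L:485815-485915: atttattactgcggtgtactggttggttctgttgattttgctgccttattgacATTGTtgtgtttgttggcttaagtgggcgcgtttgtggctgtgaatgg

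The strongest 4 of these windows hold neither ACAAT nor GATAA, and the fifth holds ATTGT from 3 to 7 bases past the summit. The window at 510800 holds 1 ACAAAG, another Sox word, which is not marked here. The next windows are shown as the ush summits with the most copies of ACAAT or GATAA. In the first, GATAA or its complement lies at 3 places, and in the second ACAAT or its complement lies at 2.
ush summit 526302, chr2L:526252-526352: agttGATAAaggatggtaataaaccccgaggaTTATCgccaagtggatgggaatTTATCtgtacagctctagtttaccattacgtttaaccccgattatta
ush summit 516192, chr2L:516142-516242: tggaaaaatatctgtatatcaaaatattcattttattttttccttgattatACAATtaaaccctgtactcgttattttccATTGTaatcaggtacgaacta

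The GATA genes are shown by the one srp summit and by the strongest and the weakest grn summit. The srp window has 1 GATAA, from 19 to 23 bases past the summit. The strongest grn window has 1 ATTGT and the weakest has GATAA or its complement at 3 places and ACAAT once.
srp summit 15984597, chr3R:15984547-15984647: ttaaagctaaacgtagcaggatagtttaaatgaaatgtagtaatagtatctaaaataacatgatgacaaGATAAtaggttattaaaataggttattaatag
grn summit 8154146, chr3R:8154096-8154196: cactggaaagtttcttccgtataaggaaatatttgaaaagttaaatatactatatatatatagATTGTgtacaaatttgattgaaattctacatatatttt
grn summit 8164916, chr3R:8164866-8164966: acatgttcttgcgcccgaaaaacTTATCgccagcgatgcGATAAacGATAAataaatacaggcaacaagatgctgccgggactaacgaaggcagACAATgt

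ush lies on chr2L:476220-540560 on the plus strand (FBgn0003963, build dm6), with 5 annotated transcripts and 4 starts, at 476220, 490835, 523466 and 523736. Sox102F-GFP had 20 summits in its window, 18 of them within the 64341-bp gene body. Of the 6 genes, 5 had at least 1 summit (GATAe had none), and 43.9% of all protein-coding genes did. By number of summits ush ranked 6 of all protein-coding genes, and by summed signal (7608) it ranked 2. Per length it stood lower, with 2.69 summits per 10 kb and rank 493.

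The ush signal was spread very unevenly over its summits. The summit at 481083, in a peak at chr2L:480860-481334, had a signal of 2460, with 1182 in replicate 1 and 1236 in replicate 4. It ranked 4 in the optimal list and 4 in each replicate's own list. It held 32.3% of the summed signal at ush, and the 3 strongest summits held 53.4%. The second, at 480054, had a signal of 914.4, with 437.6 in replicate 1 and 472.4 in replicate 4. The third, at 530421, had 690.0, with 343.8 in replicate 1 and 342.4 in replicate 4. For these 3 summits the replicates lay close together, and both placed them in the same order. Below them, 7 summits had signals from 207.4 to 443.4 and 10 had signals from 97.2, at 493512, to 181.9. Of the 20, 14 were among the 3527 strongest peaks of the optimal list and 4 among the 705 strongest. The median ush signal was 194.7, against 135.4 over the rest of the list.

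**Figure D1:**
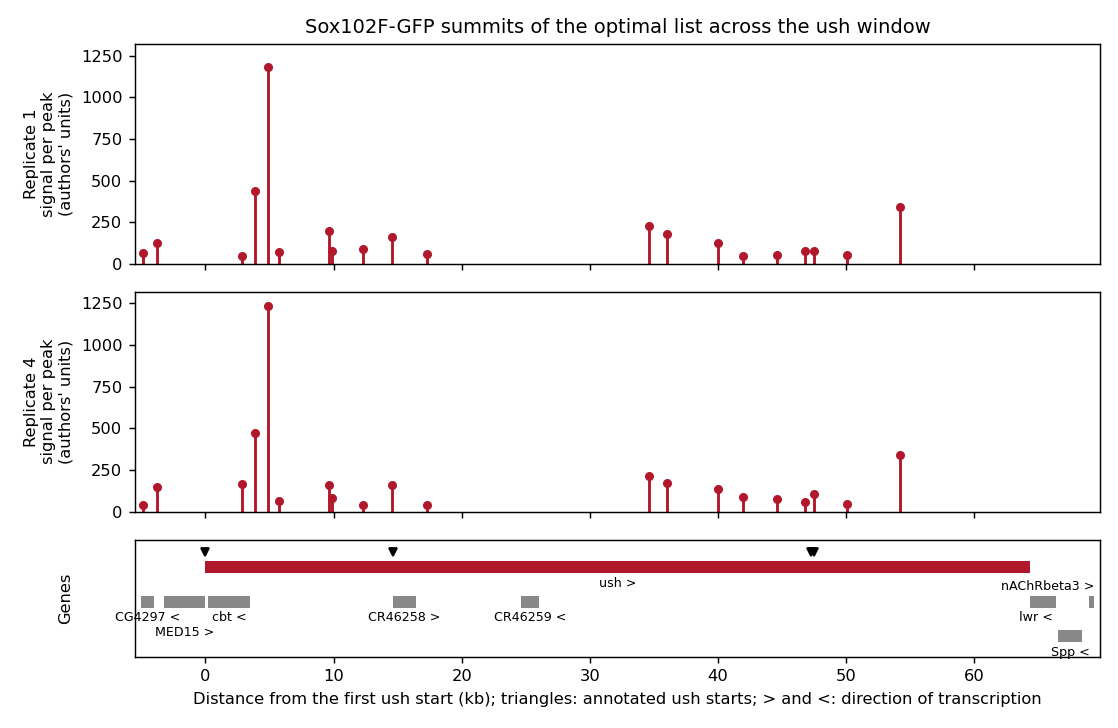
Signal per peak (authors' units) at the 20 ush summits in replicate 1 (top) and replicate 4 (middle), against distance in kb from the first ush start, with the annotated genes below (ush red, other genes grey, triangles ush starts). The tallest line in both replicates is the summit at 4863 bp, at 1182 in replicate 1 and 1236 in replicate 4, and no line stands between 17292 and 34580 bp.

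Most ush summits lay in introns. Of the 18 summits inside the gene body, 16 lay in one 49060-bp intron (chr2L:476332-525391), which is spliced in 1 of the 5 transcripts. The other 2, at 526302 and 530421, lay in a 10586-bp intron shared by all 5 transcripts (chr2L:525437-536022). Some of these positions are at the same time starts or exons of other transcripts or genes. In a fixed order of classes that puts starts (within 500 bp) and exons before introns, 13 of the 20 ush summits and 5 of the 12 GATA gene summits were intronic, 18 of 32 in all. Of all optimal summits, 43.2% were intronic, and of the GATA gene summits alone 41.7%. Because ush was picked for its intronic summits, its share and that of all 32 were partly set by that choice. In that order no summit of these genes was classed as coding sequence or 3′ UTR, and 1 was classed as 5′ UTR, that of cbt. The 11 summits classed as starts were not checked for UTR or coding sequence.

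The summits fell into several stretches along the gene. Next to the first ush start lies cabut (cbt), which encodes a zinc finger transcription factor and runs the opposite way inside the ush intron (chr2L:476446-479688). From the end of cbt to 18 kb past the first ush start there were 8 summits, 7 of them among the 3527 strongest peaks. The strongest 2 belong to this stretch. The summit at 480054 was 366 bp upstream of the cbt start, and the strongest was 1395 bp from the cbt start and 4863 bp from the first ush start. No optimal summit lay within 500 bp of that first ush start. The nearest, at 479111, was 2891 bp away in the 5′ UTR of cbt. It had a signal of 207.4.

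Further along, the summit at 490760 was 75 bp from the start shared by an ush transcript and lncRNA:CR46258. It had a signal of 324.4, with 160.2 in replicate 1 and 161.1 in replicate 4. Its window has the word GAGAG at 19 overlapping places, the most of the windows at these genes. No optimal summit lay in the next 17288 bp after 493512, the longest free stretch at ush. The pooled list has 10 weaker entries there, with signals from 19.6 to 42.3.

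A second group of summits began at 510800. That summit had a signal of 443.4, with 229.4 in replicate 1 and 211.9 in replicate 4, and was 8564 bp from the nearest annotated start of any gene, that of lncRNA:CR46259. The summit at 512231 had 354.1, with 179.6 in replicate 1 and 169.9 in replicate 4. A further 5 lay between 516192 and 523684, with signals between 133.0 and 241.6, and the last 2 of these were 475 and 52 bp from ush starts. The third strongest ush summit, at 530421, stood apart from both groups, 6685 bp from the nearest start. In all, 13 ush summits were over 1 kb and 5 were over 5 kb from any annotated start.

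Not every ush summit has ush as its nearest gene. The nearest start was one of ush for 11 summits, of cbt for 4, of CG4297 for 2 and of a lncRNA alone for 3. The 2 summits outside the gene body lay upstream, at 471377 and 472405, 178 and 205 bp from the start of CG4297, with signals of 98.2 and 269.2. MED15, a Mediator subunit, also has its start in the window. At the far end are lwr, the SUMO-conjugating enzyme, Spp, a signal peptide peptidase, and nAChRbeta3, a subunit of a nicotinic acetylcholine receptor. No optimal summit of the window lay past 530421, and the starts of these 3 genes all do. Which gene a summit acts on was not measured.

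pnr, whose protein is the partner of Ush on the dorsal side, had 3 weak summits (FBgn0003117, chr3R:16026079-16041796). The one at 16026139 lay 60 bp from the first pnr start and had a signal of 87.1, with 44.0 in each replicate. It was the only optimal summit within 500 bp of an own start at any of the 5 GATA genes. Over all protein-coding genes, 17.1% had such a summit. The summit at 16042321 had 94.1, with 41.5 in replicate 1 and 59.8 in replicate 4, and lay between genes. The summit at 16043015 had 84.2, with 30.1 in replicate 1 and 59.4 in replicate 4. Both lie past the end of pnr, and their nearest start is that of Jhbp4, at 1177 and 483 bp. Jhbp5 also has its start in the pnr window.

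srp, the GATA gene of blood, fat body and endoderm, had 1 summit (FBgn0003507, chr3R:15986152-16004085). It lay at 15984597, 1555 bp upstream of the first of 4 srp starts and outside any gene. Its signal was 184.0, with 68.7 in replicate 1 and 110.3 in replicate 4, the highest of the 12 GATA gene summits. By rank it was 2315 of 7055. No optimal summit lay within the srp body, nor at the lncRNA:CR44133, whose start lies beside the first srp start.

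grn, the only GATA gene here with more than 1 summit inside its body, had 5, all intronic (FBgn0001138, chr3R:8147368-8181444, minus strand). They lay 16528 to 27298 bp from its single start, 3 in one intron of all 3 transcripts (chr3R:8153402-8160962) and 2 in another. The summit at 8154146 had a signal of 140.0, and its replicates differed widely, at 116.4 in replicate 1 and 32.8 in replicate 4. The other 4 had signals from 77.3 to 84.3, among the weakest of the optimal list. The grn start had no optimal summit. The pooled list has an entry 19 bp from it with a signal of 51.2, with 37.3 in replicate 1 and no entry within 100 bp in replicate 4. A second one, 221 bp away, had 33.7, with 17.9 in replicate 4 and no entry within 100 bp in replicate 1.

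GATAd had 3 summits, none of them in the gene (FBgn0032223, chr2L:10333734-10339185). All lay past its end, near the starts of the next genes. The summit at 10339710 was 253 bp from the start of SamDC, which encodes S-adenosylmethionine decarboxylase, and had a signal of 82.0, with 23.6 in replicate 1 and 54.6 in replicate 4. The summits at 10341601 and 10341810 were 15 and 194 bp from the start of CG31715, with signals of 134.5 and 87.7. At 10341601 replicate 1 had 65.8 and replicate 4 had 60.3. The window also holds starts of Cox10, Schip1 and Sps2, and the pooled list has no entry in it beyond the 3 optimal ones.

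GATAe, the midgut GATA gene between srp and pnr, had no optimal summit (FBgn0038391, chr3R:16009105-16019133). Weaker entries were there in every list, 8 in the pooled list, 7 in replicate 1 and 9 in replicate 4. The strongest in the pooled list, at 16005168, had a signal of 74.3, with 29.3 in replicate 1 and 39.1 in replicate 4. It lies in an exon of lncRNA:CR42839 and in the windows of both srp and GATAe, which share 4981 bp. The one nearest the first GATAe start, 329 bp away, had 40.6, with 17.5 in replicate 1 and 24.0 in replicate 4.

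Across the neighbouring genes srp, GATAe and pnr, no optimal summit lay in a stretch of 41542 bp, from the srp summit at 15984597 to the pnr summit at 16026139. That stretch holds all of srp and GATAe, and the pooled list has 13 weaker entries in it. Of the 7049 gaps between neighbouring optimal summits, 10.5% were at least as long, and the median gap was 4956 bp.

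**Figure D2:**
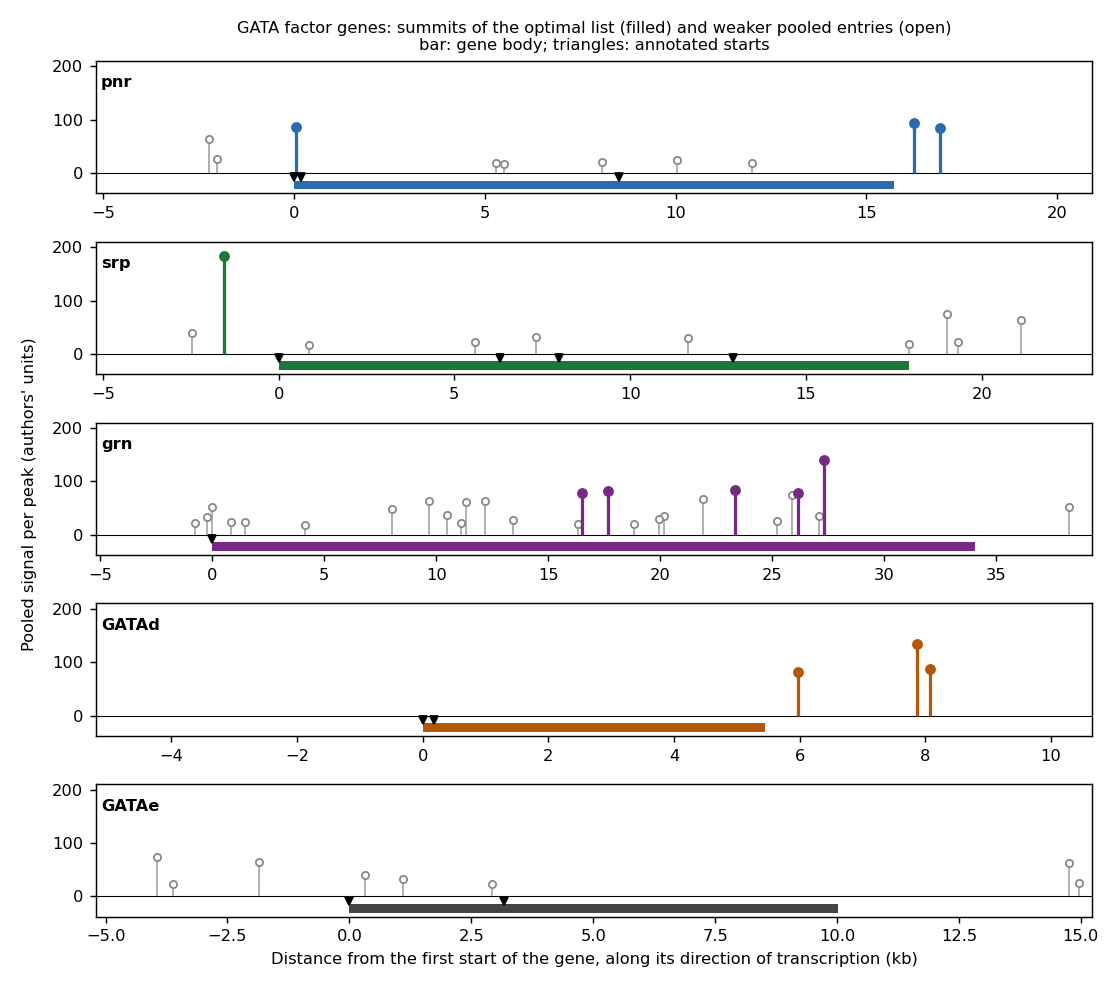
Pooled signal per peak (authors' units) against distance in kb from the first start of pnr, srp, grn, GATAd and GATAe, from top to bottom, along the direction of transcription, with filled points for optimal summits, open points for weaker pooled entries, bars for gene bodies and triangles for starts. Filled points lie between 77.3 and 184.0, the grn ones are all inside the gene body, the GATAd ones all past its end, and GATAe has open points only.

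Several GATA gene counts turned on the threshold of the optimal list. The lowest signal in that list was 76.7. Just inside were the grn summits at 8164916 and 8155298, with 77.3 and 78.3. Just outside were the grn entry at 8155545, with 74.5, and the entry at 16005168 shared by srp and GATAe, with 74.3. At ush, by contrast, the weakest optimal summit had 97.2 and the strongest weaker entry 69.2. GATA gene summits had a median signal of 85.7, ush summits one of 194.7. Of the 12 GATA gene summits, 2 were among the 3527 strongest peaks and none among the 705 strongest.

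All 32 summits had an entry within 100 bp in both replicate lists, where 91.5% of all optimal summits did. The optimal list was derived from both replicates, and each replicate list holds 30000 entries, background included. A match was therefore likely in advance and is no separate support. At ush, 10 summits were higher in replicate 4 and 10 in replicate 1, with a median log2 ratio of replicate 4 to replicate 1 of 0.00. The ratios ran from -1.02 at 488483 to 1.90 at 479111. At 479111, in the 5′ UTR of cbt, replicate 1 had 44.6 and replicate 4 had 167.0. Over all 6458 matched optimal peaks, 99.2% of ratios were no higher than that one. The GATA gene ratios ran from -1.83 at the grn summit 8154146 to 1.21 at 10339710 past GATAd. Among all matched peaks, the central range from the 2.5 to the 97.5 percentile was -1.32 to 1.36, so 1 ush summit and 1 grn summit lay outside it.

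As to the order of signals, Spearman's rho between the replicates was 0.70 over the 20 ush summits, 0.04 over the 12 GATA gene summits and 0.73 over all 6458 matched peaks. These are descriptions across sites of the same 2 libraries, selected by pooled signal, and the GATA gene summits span a much narrower range of signal.

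**Figure D3:**
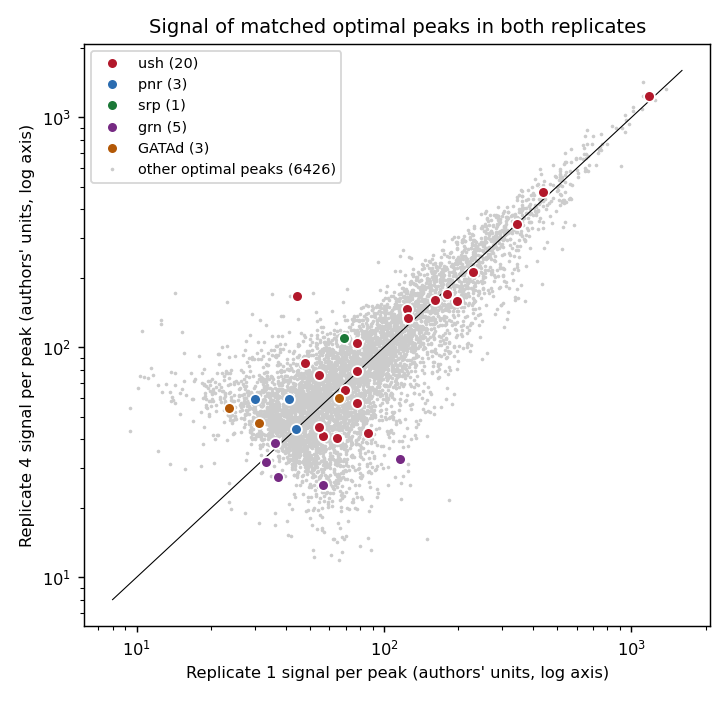
Signal per peak in replicate 4 against replicate 1 (authors' units, log axes) for the 32 summits at ush (red), pnr, srp, grn and GATAd, and for the other matched optimal peaks (grey), with a line of equal values. The 3 strongest ush summits lie close to the line at the upper end, and the GATA gene summits crowd at the low end with wide scatter around it.

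Words bound by Sox and GATA proteins were about as frequent at these summits as over the whole list. ACAAT, on either strand, was in 8 of the 32 windows (25%), 5 at ush and 3 at the GATA genes, where 29.0% of all optimal windows had it. GATAA was in 7 of 32 (21.9%), 4 at ush and 3 at the GATA genes, where 22.5% of all had it. In windows 500 bp to the lower and higher side of the same summits, ACAAT was in 9 and 6 of 32 (28.1% and 18.8%), where 25.1% and 24.8% of all such windows had it. GATAA was in 9 and 9 (28.1% each), where 17.1% and 17.96% of all had it. Over the whole list both words were thus commoner at the summits than in these flanks, and GATAA at the 32 summits was not. Neither word was in 12 of the 20 ush windows, 7 of the 12 GATA gene windows and 55.3% of all windows. At 25 bp each side the shares were 12.5% for ACAAT, against 15.8% of all, and 18.8% for GATAA, against 11.5% of all. With so few windows behind each share, these counts are not results about these genes.

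The other words were counted in the same windows. The bare word GATA, which includes every GATAA, was in 10 of 20 ush windows and 3 of 12 GATA gene windows, where 51.8% of all had it. GATA between A or T and A or G (that is, AGATAA or AGATAG or TGATAA or TGATAG) was in 6 of 20 ush and 1 of 12 GATA gene windows, against 21.1% of all. GAGAG was in 5 of 20 ush and 1 of 12 GATA gene windows, against 14.2% of all. The E-box CANNTG was in 7 of 20 and 4 of 12, against 34.8%. ACAAAG, another Sox word, was in 2 of 20 and 2 of 12, against 8.11%. AACAAT, a longer form of ACAAT, was in 3 of 20 and none of 12, against 12.7%. Median AT content of the windows was 64.4% at ush, 61.9% at the GATA genes and 66.3% over all. A word in a window is only a match of letters, and its absence says nothing about whether a factor was bound.

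Long genes have more room for summits, so each gene was set beside protein-coding genes with a body within 20% of its own length. For ush there were 156 such genes, from 51533 to 77089 bp. Their median was 3 summits, with quartiles of 0 and 7, and 43 of them had none. Only psq, which encodes a BTB-domain DNA-binding protein, had as many (20), and none had a higher summed signal. Many genes as long as the GATA genes had counts like theirs. Among genes as long as grn, 22.2% had at least its 5 summits, and for pnr, 30.4% had at least 3. For GATAd that share was 13.4% and for srp 72.0%. Of genes as long as GATAe, 37.8% also had no summit.

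**Figure D4:**
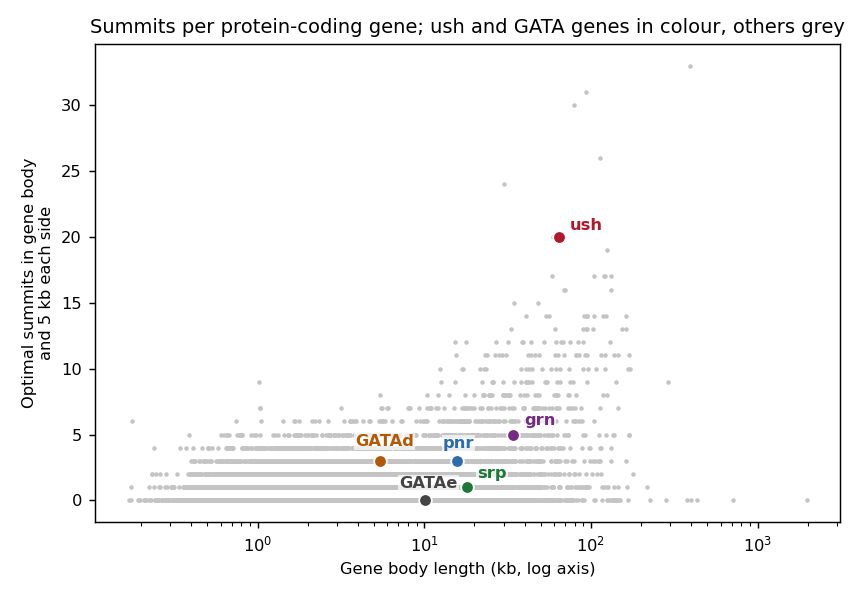
Optimal summits in the gene body and 5 kb each side against gene body length (kb, log axis) for all protein-coding genes (grey), with ush and the GATA genes in colour. ush stands at 20 summits, where genes of like length have a median of 3, and grn, GATAd, pnr, srp and GATAe lie at 5 or fewer among the grey points.

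When genes were ordered by number of summits, ties by summed signal, the 3 above ush were sbb, Eip75B and Mnt and the 3 below were psq, CG1677 and shn. sbb, a transcriptional corepressor, had 30 summits and a summed signal of 7743. Eip75B, a nuclear receptor induced by the moulting hormone ecdysone, had 26 and 5981. Mnt, a repressor of the Myc network, had 24 summits with a summed signal of 3753. psq had 20 with 3152, CG1677 had 19 with 4923, and shn, a zinc finger protein of Dpp signalling, had 17 with 4176. ush had the strongest single summit of the 7 genes, and all of these counts use both replicates pooled. Only 7 genes (0.0502%) had 20 summits or more. The likeness is one of counts in 1 list.

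Partners of Ush and the GATA factors, and genes of tissues or processes in which these act, were described from 7 lists. The lists hold 87 distinct genes matched in the annotation. Only 1 list is of protein partners, and for the other lists no link of each gene to ush or a GATA factor was shown. Of these, 55 (63.2%) had at least 1 summit, against 43.9% of all protein-coding genes. Their median was 1 summit and that of all genes 0. Their bodies were also longer, with a median of 7671 bp against 2166 bp for all genes.

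Protein partners of Pnr, Srp and Ush had a summit at 15 of 18 genes (83.3%), where 43.9% of all protein-coding genes had one. Their median was 1.5, and long genes such as Bx (57382 bp) are among them. The strongest was at osa, which encodes part of the SWI/SNF-type nucleosome remodeller, with a signal of 1919 and with 954.0 in replicate 1 and 977.5 in replicate 4. That summit lay 13938 bp from the nearest osa start, in an exon and outside UTRs and coding sequence. At Caf1-55, a histone-binding subunit of several chromatin complexes, the signal was 1181, but 3953 bp from the Caf1-55 start. This summit lay outside the 1989-bp gene, within 500 bp of a start of another gene. At Mi-2, the ATPase of the NuRD complex, an intronic summit had 1071, with 522.0 in replicate 1 and 550.4 in replicate 4. The 3 partner genes with no summit were Chi, ap and sc, named after their values were seen.

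Amnioserosa and dorsal closure genes, a setting in which both pnr and ush act, had a summit at 12 of 14 genes (85.7%). Their median was 2, and 43.9% of all protein-coding genes had a summit. Long genes such as shn (58309 bp) and tkv (52385 bp) are among them, and these shares take no account of length. The strongest were at puc, a phosphatase that restrains JNK signalling (778.3, 28 bp from its start), at tup, a LIM homeodomain factor (739.7, 23461 bp from its nearest start), and at shn (738.5, 182 bp from its start). The tup summit lay outside the 21755-bp gene, within 500 bp of a start of another gene. Genes of the notum and dorsal patterning had one at 7 of 12 (58.3%), with a median of 1. There wg, the Wnt ligand, led with 265.8, then emc, an inhibitor of proneural proteins, with 217.2, and sr, a factor of tendon cells, with 165.8. These summits lay 12987, 1 and 3198 bp from the nearest start of their own gene, the wg one outside the gene.

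In the lists tied to srp, the heart and the gut, between 46.2% and 55% of genes had a summit, beside 43.9% of all protein-coding genes. The lists are short, and no difference between them was tested. Distances given with the signals are to the nearest start of the named gene. Blood cell genes had a summit at 11 of 20, with a median of 1. The peptidase gene Ance (300.0, 1133 bp), the Runx factor lz (294.6, 21308 bp) and the zinc finger homeodomain gene zfh1 (278.8, 1449 bp) led. Endoderm and midgut genes had one at 6 of 11, with a median of 1, led by cad (231.7, 16542 bp), fkh (174.4, 255 bp) and esg (129.1, 4344 bp). Fat body genes had one at 5 of 10, with a median of 0.5. There the storage protein gene Lsp2 (411.3, 4212 bp), Adh (288.5, 6107 bp) and Ilp6 (234.7, 2885 bp) led. Heart genes had one at 6 of 13, with a median of 0. The homeobox gene tin (447.2, 200 bp), the T-box gene Doc1 (209.9, 3691 bp) and how (166.7, 1960 bp) led them. At tin replicate 1 had 296.1 and replicate 4 had 152.6, and at how replicate 1 had 85.0 and replicate 4 had no entry within 100 bp. The leading summits of lz, cad, esg, Lsp2, Adh and Doc1 lay outside the gene itself, in its flank. Some genes stand in several lists, and a strongest summit can lie nearer to the start of another gene.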

How the data were processed

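Chromatin from whole white prepupae was profiled by ChIP-seq in 2 biological replicates of 1 group, numbered 1 and 4. Per the deposited text records, the authors made each peak list from alignments and a control. Which aligner was run is not given in the sources used here, nor are the peak caller and the threshold. The lists used are on dm6. The signal per peak and the summit position, another value (bases past the peak's first base), are the authors' own, as deposited. The optimal list has 7055 peaks, and the pooled list and each replicate's list have 30000 entries, background included. All optimal peaks are also in the pooled list. Depth is unknown.

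Summits were assigned to genes with Ensembl release 115 (BDGP 6.54, dm6 coordinates counted from 1), and sequence came from the RefSeq release 6 assembly. Each summit took the first class that held it, starts (within 500 bp) before UTRs, then exons, introns and the space between genes. A replicate entry was matched within 100 bp. Words on both strands were sought up to 50 bp from a summit. Of the symbols in the 7 lists, 3 entries were not analysed here.

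Named genes are the 6 genes, genes with a start in their windows, the 3 above and 3 below ush by summit count, and the 3 with the strongest summit in each list. The genes and lists were chosen with earlier results of these data known. No test was made, since the design has 1 group. The functions were tested on simulated data, with Python 3.11.15, numpy 2.4.6, scipy 1.17.1 and matplotlib 3.10.9. Alternatives covered the flank, the 3527 strongest peaks, merged summits, each replicate alone, the matching distance, the start window, and the word and its window.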

Additional observations from a re-analysis of the deposited data

How the results depend on the processing

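Of the 36 alternatives, 23 left their value within its limits and 13 moved it. The limit was a fixed fold change for counts and, for ranks, the spread of the values from each replicate alone. For the ush rank by summit count those values were the same, so any change counted as a move. Leaving a replicate out meant taking the 7055 strongest entries of the other, with no new optimal list. The split depends on these limits. The GATA gene count of 12 summits became 6 with no flank and 2 among the 3527 strongest peaks, and ranged from 6 to 10 with 1 replicate left out (6 without replicate 4: pnr 1, srp 1, grn 2 and GATAd 2). The rank of ush by summit count, 6, became 7 with no flank, 8 with a flank of 2 kb and 3 among the 3527 strongest peaks, and was 5 without either replicate. The ush count stayed between 14 and 22, and its strongest summit ranked 4 in each replicate. GATAA windows, 7 of 32, became 12 at 100 bp each side (37.5%, against 37.8% of all peaks) and 13 with the word GATA (40.6%, against 51.8%). At 25 bp they were 6 (18.8%, against 11.5%). ACAAT windows, 8 of 32, became 4 at 25 bp (12.5%, against 15.8%), 14 at 100 bp (43.8%, against 47.4%) and 3 with AACAAT (9.38%, against 12.7%). Among each replicate's 7055 strongest entries, 23 of the 32 summits were matched in both (71.9%, against 67.9% of all optimal summits), and 27 were matched at 50 bp (84.4%, against 71.7%). The cause of each move beyond its own construction was not tested. No paired analysis was possible because there is 1 group. Without read counts, the weakest GATA gene summits have no depth behind them to set a precision.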
